A study of Mus musculus with 24 samples.

Results

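The transcripts described here are those of 10 immediate early genes, Fos, Fosb, Fosl2, Jun, Junb, Egr1, Egr2, Atf3, Ier2 and Nr4a1, in sorted endothelium of the mouse aorta and skeletal muscle. They were found among the 41174 probes of the arrays by RefSeq accession. The 10 genes had 12 probes named in this way, against 18747 genes with a named probe in all, and the brightest of these for each gene was used. RNA was read on 24 single-colour Agilent arrays, 3 for each of 8 groups given by tissue (aorta or skeletal muscle), strain and diet. The WT mice were C57BL/6 and the KO mice were galectin-3 (-/-), with a targeted deletion within Lgals3 that every cell of the animal carries. Male mice of both strains, 8 weeks old at the start, were fed for 8 weeks with chow (12% of calories from fat) or with a high-fat diet (HFD, 60%). Each array held amplified RNA of live CD105+/CD45- cells, pooled from 3 mice (up to 4 by the labels), so that each group is 3 pools. Aorta and muscle of a group and experiment came from the same pool of mice, and there are 12 such pools. Tissue was dispersed with collagenase before sorting in every group, and no array of intact tissue was analysed here. The sort marker CD105 (endoglin) is not exclusive to endothelium, since some myeloid cells can carry it.

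Immediate early genes are transcribed within minutes of a stimulus from factors that are already present in the cell, without new protein synthesis. Fos and Jun proteins pair through leucine zippers to form the AP-1 transcription factor, the Egr proteins are zinc finger factors, and Nr4a1 is an orphan nuclear receptor. Their promoters are classically driven by serum response factor with its ternary complex partners and by CREB, which MAP kinases and protein kinase A activate. In endothelium they respond to shear stress, growth factors and cytokines, and they are also known to rise when a tissue is dispersed into single cells.

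The promoters of the members are shown first because the members were high on the same arrays, as described below. RefSeq promoters (GRCm38.p6, 250 bases before to 50 after each start site) were at hand for 8 of the 10 genes, with 5 entries for Egr2, and Egr1 and Ier2 had no entry in the table used. Both strands were searched for the full cAMP response element (TGACGTCA), its core (TGACG, which also lies within the full element), the AP-1 site (TGACTCA or TGAGTCA), the CArG box that serum response factor binds, and a TATA element (TATAAA). The core was found for 6 of these 8 genes (Fos, Fosb, Junb, Egr2, Atf3 and Nr4a1), and in 20.8% of the 32851 promoters of the table. The CArG box was found within these windows for Egr2 alone among the 8 and in 1.63% of all promoters. A gene counted if any of its entries matched, while the shares are per entry, and sites further upstream were not searched. TATAAA was found for Fos, beginning at base -33, and for Junb, beginning at base 0, the start site itself, and in 13.6% of all promoters. No full element (1.79% of all promoters) and no AP-1 site (5.2%) lay in the members' windows. Nr4a1 had 4 cores, the most of any member. The windows below run 5′ to 3′ and end at the base before the start site, with cores, CArG box and TATAAA in capitals, and they are shown for 4 members with matches. Nr4a1 lies at chr15:101266596-101266845 (+ strand), Fosb at chr7:19310046-19310145 (- strand), Egr2 (the third of its entries) at chr10:67537719-67537868 (+ strand) and Fos at chr12:85473740-85473889 (+ strand).
Nr4a1: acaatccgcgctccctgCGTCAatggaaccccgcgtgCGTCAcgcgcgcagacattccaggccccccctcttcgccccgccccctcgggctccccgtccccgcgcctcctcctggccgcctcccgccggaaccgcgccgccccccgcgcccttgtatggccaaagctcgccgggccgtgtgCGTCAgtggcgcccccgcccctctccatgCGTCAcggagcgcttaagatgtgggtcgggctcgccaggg
Fosb: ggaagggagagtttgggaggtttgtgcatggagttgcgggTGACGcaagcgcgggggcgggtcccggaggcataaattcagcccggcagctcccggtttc
Egr2: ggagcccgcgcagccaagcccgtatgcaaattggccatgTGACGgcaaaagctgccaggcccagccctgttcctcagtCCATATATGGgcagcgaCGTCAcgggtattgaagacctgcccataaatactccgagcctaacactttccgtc
Fos: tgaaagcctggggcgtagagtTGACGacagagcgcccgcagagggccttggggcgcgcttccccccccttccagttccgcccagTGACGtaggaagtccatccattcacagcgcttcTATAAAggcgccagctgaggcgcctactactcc
A match is a string of letters, and no factor was measured at it.

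All levels below are log2 values of a probe's processed signal relative to the 75th percentile of its array, so that a positive value lies above that percentile, and probes of different genes are not set against each other. All 10 probes were well above background on 24 of 24 arrays and none was saturated. Fos, Jun and Egr2 were each printed on 10 spots of every array. The median SD between those spots over the 24 arrays was 0.09, 0.05 and 0.06, while the SD between arrays of a group, pooled over the 4 groups of a tissue, was 0.34 in aorta and 0.34 in muscle for Fos and 0.37 and 0.80 for Egr2. On most arrays the spots thus lay closer together than the arrays did. The exceptions for Fos were the WT HFD and KO HFD muscle arrays of experiment 2, where the SD between spots was 0.44 on each. The deposited files name 6 slides of 4 arrays, each with the 4 groups of 1 tissue and 1 experiment, and 2 scan sessions.

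The cells were checked against 12 endothelial transcripts, including Pecam1, Cdh5 and Kdr, and all 12 were well above background on all 24 arrays. Their summed level, on the linear scale relative to the 75th percentile, ran from 147 to 466 in aorta and from 443 to 724 in muscle. Fibroblast transcripts (Col1a1, Col1a2, Dcn, Lum, Pdgfra and Dpt) summed to 224 to 507 in aorta and to 17.2 to 160 in muscle. Skeletal muscle fibre transcripts summed to 0.823 to 4.32 in aorta and to 13.4 to 87.4 in muscle, adipocyte transcripts to 71.9 to 293 and 99.6 to 189, smooth muscle and pericyte transcripts to 70.1 to 140 and 86.9 to 141, leukocyte transcripts to 3.00 to 11.5 and 1.49 to 9.43, and red cell transcripts to 4.63 to 49.4 and 11.4 to 67.8. The adipocyte sum in muscle came mainly from the Fabp4 signal, at a mean log2 level of 6.91 in muscle and 6.55 in aorta. Cfd, Plin1 and Retn were lower in muscle, at 2.18, -4.33 and -3.92, against 3.76, -0.59 and -1.64 in aorta. Adipoq was also lower in muscle, and Lep was well above background on 0 of 12 aortic and 1 of 12 muscle arrays. The similar sums thus do not show similar adipocyte RNA in the tissues. In pooled sorted cells, fewer cells of a type and less RNA per cell cannot be told apart. For Lgals3, arrays labelled KO lay above the WT array of the same tissue, diet and experiment in 11 of 12 comparisons (median log2 difference 1.30). Whether this probe lies outside the deleted part was not analysed, so it does not check the labels, and KO is used below as the label gives it.

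The clearest difference was between the tissues: 7 of the 10 members were higher in cells sorted from aorta than in those from skeletal muscle and none was lower (limma, Benjamini-Hochberg adjusted p under 0.05 over all 26752 probes tested). The sort aimed at endothelium of a large artery against that of small vessels, but the sorted cells differed in make-up. The median summed level of fibroblast transcripts was 290.6 in aorta, against 277.5 for endothelial ones, and in muscle 43.65 against 518.7. A difference in cell make-up and one in the level of endothelial cells cannot be told apart here. Over all probes, 16% were called higher in aorta and 30.3% lower, 46.3% together. The median log2 difference of the members was 0.76 and that of all probes -0.27. Nr4a1, Fosb, Atf3 and Egr2 were between 2.58-fold and 3.62-fold higher in aorta, Fosl2, Egr1 and Fos between 1.38-fold and 1.79-fold.

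**Figure D1:**
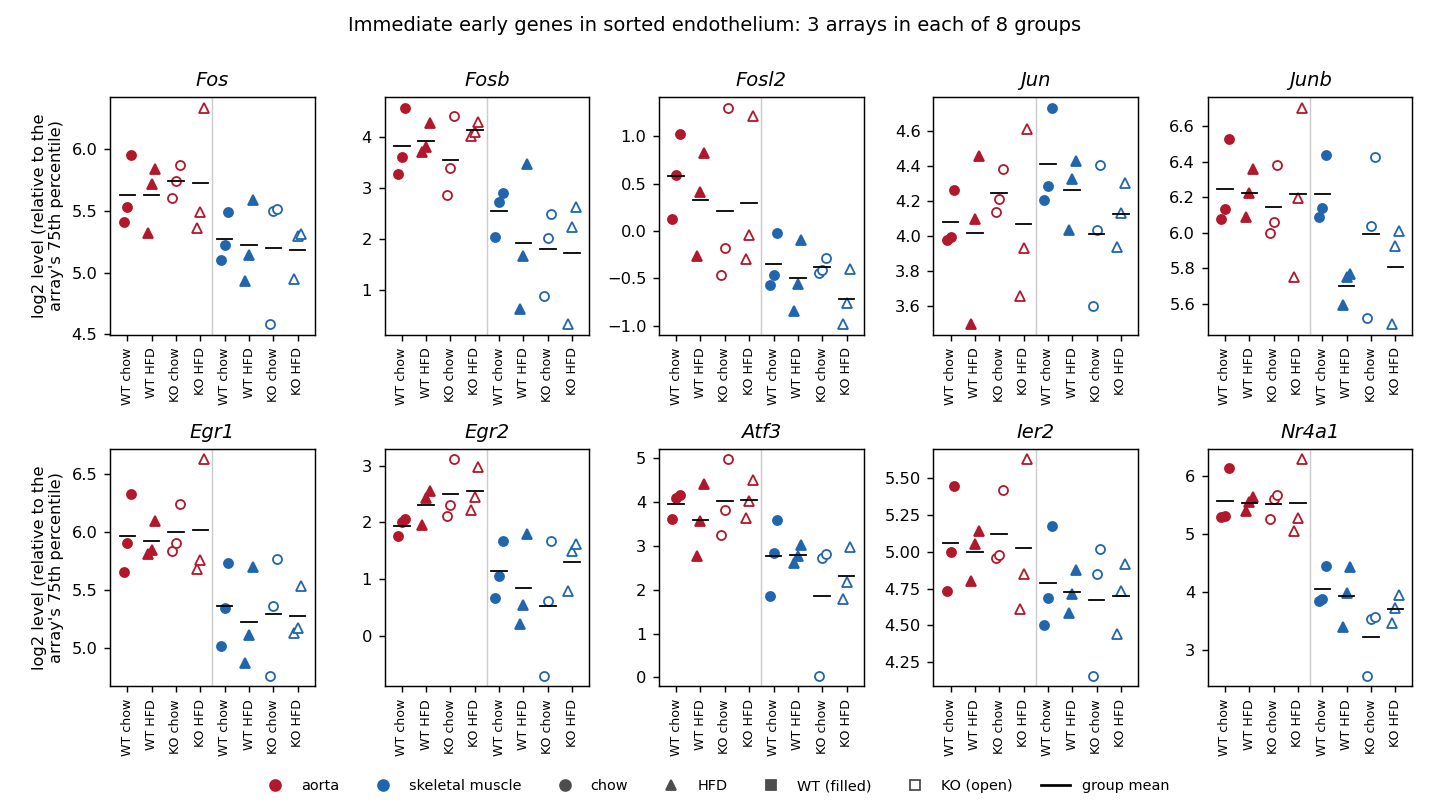
Log2 level of each immediate early gene (y axis, relative to the array's 75th percentile, a separate scale for each gene) in the 8 groups of 3 arrays (x axis). Red is aorta and blue skeletal muscle, circles chow and triangles HFD, filled WT and open KO, and bars are group means. Only for Nr4a1 do all 12 aortic arrays (5.06 to 6.29) lie above all 12 muscle arrays (2.55 to 4.45).

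Nr4a1, the nuclear receptor of the group, had the smallest adjusted p. Its level ran from 5.06 to 6.29 over the 12 aortic arrays (median 5.48) and from 2.55 to 4.45 over the 12 muscle arrays (median 3.79). The lowest aortic array lay above the highest muscle array, which held for 3.54% of all probes tested. The log2 difference was 1.81 (SE 0.18, 95% interval 1.43 to 2.19, adjusted p = 2.14e-07), and aorta was higher in 12 of 12 pools of mice. Within experiments 1, 2 and 3 it was 1.82 ± 0.81, 1.77 ± 0.72 and 1.84 ± 0.37 (SD, n = 4 pools each). In the order of group means the 4 aortic groups came first, at 5.58 ± 0.48 (WT chow), 5.54 ± 0.66 (KO HFD), 5.53 ± 0.12 (WT HFD) and 5.52 ± 0.22 (KO chow), each mean ± SD of 3 arrays. These 4 neighbours differed by less than their spread. The muscle groups followed at 4.06 ± 0.34 (WT chow), 3.93 ± 0.52 (WT HFD), 3.71 ± 0.24 (KO HFD) and 3.22 ± 0.58 (KO chow), and each neighbour again lay within the spread of the next.

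Of the AP-1 subunits, the 3 Fos family members were higher in aorta and the 2 Jun family members were not called. Fosb, a Fos family protein, ran from 2.87 to 4.57 in aorta (median 3.92) and from 0.34 to 3.47 in muscle (median 2.15). Its log2 difference was 1.86 (SE 0.32, adjusted p = 0.000135), with aorta higher in 12 of 12 pools, by 0.34 to 3.68. The muscle arrays were spread over 3.13 log2 units and the aortic ones over 1.70, and the highest muscle arrays reached into the aortic range.

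Fos itself ran from 5.32 to 6.33 in aorta (median 5.66) and from 4.58 to 5.58 in muscle (median 5.26), and the ranges overlapped between 5.32 and 5.58. Its log2 difference of 0.46 (SE 0.15, adjusted p = 0.0176) was positive in 10 of 12 pools. This call was lost when any 1 experiment was left out, with differences of 0.46, 0.40 and 0.51 without experiments 1, 2 and 3 (adjusted p = 0.0604, 0.109 and 0.103). It was also lost with the slide as a random block (adjusted p = 0.136).

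Fosl2, the Fos-related antigen that is made later and more steadily than Fos, ran from -0.47 to 1.30 in aorta (median 0.26) and from -0.98 to -0.02 in muscle (median -0.45). Aorta was higher by 0.84 (SE 0.22, adjusted p = 0.00436) and in 11 of 12 pools. Without experiment 1 the difference was 0.82 with an adjusted p of 0.0825. A second, dimmer probe of Fosl2 was well above background on 2 of 12 aortic and 7 of 12 muscle arrays and lay the other way, at -6.49 in aorta and -5.82 in muscle.

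Jun, the main partner of Fos in AP-1, ran from 3.50 to 4.61 in aorta (median 4.12) and from 3.60 to 4.73 in muscle (median 4.25). The groups overlapped almost wholly. The log2 difference was -0.10 (95% interval -0.40 to 0.20, adjusted p = 0.582), aorta was higher in 4 of 12 pools, and quantile normalization turned the sign (0.06). Junb, a weaker activator than Jun, ran from 5.75 to 6.70 in aorta and from 5.49 to 6.44 in muscle. Its difference of 0.28 (95% interval -0.00 to 0.56) had an adjusted p of 0.099, and its second probe lay at 5.59 in aorta and 5.37 in muscle. With quantile normalization Junb was called at 0.53 (adjusted p = 0.00651).

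Both Egr genes were higher in aorta. Egr1, a zinc finger factor long known as a shear stress response gene, ran from 5.66 to 6.63 in aorta (median 5.88) and from 4.76 to 5.77 in muscle (median 5.26). Its log2 difference was 0.69 (SE 0.16, adjusted p = 0.00174), positive in 12 of 12 pools, though the ranges overlapped between 5.66 and 5.77. Egr2 ran from 1.76 to 3.11 in aorta (median 2.26) and from -0.70 to 1.80 in muscle (median 0.93). Its difference was 1.37 (SE 0.25, adjusted p = 0.000184), with 12 of 12 pools higher in aorta by 0.15 to 2.80. The ranges of Egr2 shared only the stretch between 1.76 and 1.80.

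Atf3, a stress-induced relative of the CREB family that represses transcription as a homodimer, ran from 2.78 to 4.98 in aorta (median 3.92) and from 0.04 to 3.59 in muscle (median 2.75). The difference was 1.47 (SE 0.32, adjusted p = 0.000989) and positive in 12 of 12 pools, by as little as 0.01. Ier2, a small nuclear protein of the early response, ran from 4.61 to 5.63 in aorta and from 4.16 to 5.17 in muscle. Its difference of 0.33 (95% interval 0.02 to 0.64, adjusted p = 0.0776) was positive in 9 of 12 pools. Ier2 was called with the pools of mice as a block (adjusted p = 0.0333) and with quantile normalization (0.52, adjusted p = 0.00454). In all, 5 members (Fosb, Egr1, Egr2, Atf3 and Nr4a1) were higher in aorta in every pool, as were 8.68% of all probes tested.

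**Figure D2:**
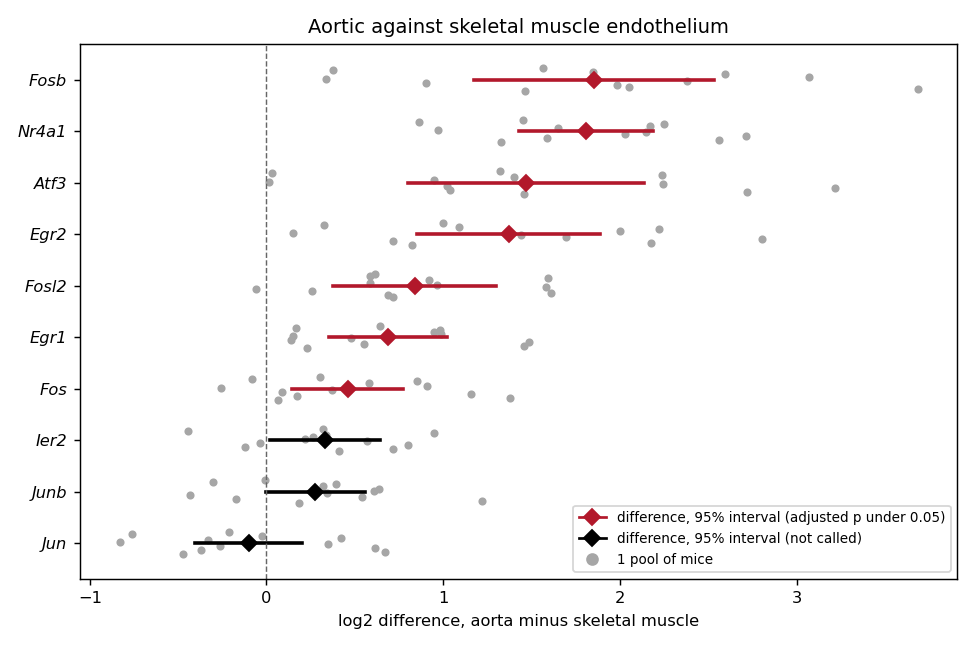
Log2 difference between cells sorted from aorta and from skeletal muscle for each member (x axis). Diamonds and lines give the difference over 24 arrays with its 95% interval, red where the adjusted p was under 0.05, and grey points the 12 pools of mice. All points of Fosb, Nr4a1, Atf3, Egr2 and Egr1 lie above 0, and Jun (-0.10) lies on both sides of it.

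Values of other cell types moved with this difference. All 6 fibroblast transcripts were higher in aorta (median log2 difference 4.16), as were 4 of 5 tested adipocyte transcripts, and 11 of 12 endothelial transcripts (median -1.06), 6 of 6 skeletal muscle fibre transcripts and 5 of 8 smooth muscle and pericyte transcripts were lower. Their part in the difference of the immediate early genes was not tested. Every slide held arrays of 1 tissue, so that within 1 experiment slide and tissue cannot be told apart, and over the series the tissues are compared only between slides. With the slide as a random block over the 6 slides, 6 of the 10 members were called, all but Fos of the 7. That fit used 1 correlation for all probes (0.28) and took its freedom from arrays rather than slides. It is thus a lenient check and does not separate slide from tissue.

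Other immediate early genes moved in both directions. Of 48 such genes, 44 were tested, of which 13 were higher in aorta and 12 lower (16% and 30.3% of all probes), with a median log2 difference of 0.08 (-0.27 over all probes). Without experiment 1 the count of lower calls was 7. The 5 with the largest differences were all higher in aorta. They were Phlda1 (2.94, SE 0.25, adjusted p = 3.44e-08), the C/EBP factor Cebpb (2.11), the growth regulator Myc (1.99), the IκB family member Nfkbiz (1.62, with adjusted p = 0.0605 without experiment 1 and 0.07 without experiment 2) and the stress gene Gadd45b (1.59, SE 0.21). Of 15 tested upstream regulators, the kinases and transcription factors that act on these promoters, 7 were lower in aorta and none was higher (30.3% and 16% of all probes). Their median was -0.59, against -0.27 over all probes, and 4 were called lower with the slide as a random block or without experiment 2. Among them were the ternary complex factor Elk3 (-1.06, SE 0.14, adjusted p = 6.02e-06), the ERK kinase Mapk3 (-0.93), the CREB gene Creb1 (-0.90) and the JNK gene Mapk8 (-0.65). Mapk8 was not called without experiment 1 or 2 (adjusted p = 0.117 and 0.192) or with the slide as a random block (0.178). Of 12 heat shock genes, 3 were higher and 4 lower, shares near those of all probes (16% and 30.3%), and with the slide as a random block 1 was higher and 1 lower. Among these chaperone genes Hsph1 (1.37) and Hspe1 (0.75) were higher in aorta, and Hspa1b (-1.03), Hspb1 (-0.98) and Hspa1a (-0.57) were lower. Of these, Hspe1 was not called without experiment 1 (adjusted p = 0.0512), and Hspa1b and Hspa1a were not called without experiment 2 (0.114 and 0.0785) or 3 (0.0672 and 0.128). Lists chosen with earlier results known are not independent evidence of a direction.

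Diet gave no called difference at the probe used for any member. The comparison asks whether 8 weeks of HFD changed the immediate early transcripts of the endothelium. An HFD array was paired with the chow array of its strain and tissue from the same experiment. In limma, 0 of 10 members were called in WT aorta, KO aorta or WT muscle, where 0% of all probes were called, and 0 of 10 in KO muscle (0.00393% of all probes). Over both strains 0 of 10 were called in aorta (0.0626% of all probes) and in muscle (0.287%). No member had an unadjusted p under 0.05 in these 6 contrasts, nor by the methods' t-test on the 3 ratios of a strain and tissue. The study's own table for muscle endothelium lists Ier2 as lower on HFD, by more than 1 log2 unit in WT and by less in KO. That entry has an accession outside RefSeq, and probes with only such accessions were not searched here. The Ier2 probe used here differed by -0.06 in WT muscle. Over both strains the differences ran from -0.17 (Atf3) to 0.35 (Fosb) in aorta and from -0.35 (Junb) to 0.25 (Atf3) in muscle. The 95% intervals reached 0.45 to 0.75 to either side of the difference in aorta and 0.35 to 1.34 in muscle. A change of 1 log2 unit in muscle thus lay within the interval for Fosb (-1.69 to 1.00 with a difference of -0.34), Egr2 (-0.76 to 1.26) and Atf3 (-0.77 to 1.27), and outside it for the other 7. In aorta it lay within the interval for Fosb (-0.32 to 1.01) and outside it for the rest. Intervals within a single strain were wider, such as -0.36 to 1.52 for Fosb in KO aorta. The contrasts of the diet response between strains (KO minus WT, 0% of all probes called in either tissue) and between tissues (0.0635%) also called 0 of 10 members, with no unadjusted p under 0.05. Of the other immediate early genes tested over both strains, 5 of 44 lay above 0 in aorta (median -0.18, against 0.01 over all probes) and 15 of 43 in muscle (median -0.10), and none was called. In the same aortic contrast 0 of 12 endothelial transcripts (median -0.65), 0 of 5 adipocyte transcripts (-4.14) and 6 of 6 fibroblast transcripts (0.70) lay above 0, none of them called. In muscle 4 of 12 endothelial (-0.02), 0 of 5 adipocyte (-0.46) and 6 of 6 fibroblast transcripts (1.02) lay above 0. Their part in the shift of the immediate early genes was not tested. The chaperone Hsph1 differed by 0.74 in aorta (adjusted p = 0.245) and by 0.96 in muscle (adjusted p = 0.126).

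The values were nevertheless not flat. In single pairs the members moved together and by sizeable amounts, with signs that differed between experiments. In aorta, 10 of 10 members were higher on HFD in the KO pair of experiment 2 (median log2 difference 0.68), and 0 of 10 in the KO pair of experiment 3 (median -0.54). In WT aorta 1 of 10 was higher in experiment 1 (median -0.64), 8 of 10 in experiment 2 (0.26) and 10 of 10 in experiment 3 (0.25). In the KO pair of experiment 1, 6 of 10 were higher (0.07). Of all probes tested in aorta, 46.9%, 53.5% and 52.1% were higher on HFD in the WT pairs of experiments 1, 2 and 3, and 43.4%, 57.3% and 49.3% in the KO pairs. The median of all probes had the sign of the members' median in 5 of these 6 pairs, but its size was 0.17 or less.

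In muscle the strains changed sign together. In experiment 1, 9 of 10 members were higher on HFD in WT (median 0.42) and 9 of 10 in KO (0.74). In experiment 2, 0 of 10 were higher in WT (-0.59) and 2 of 10 in KO (-0.57). In experiment 3, 2 of 10 were higher in WT (-0.16) and 3 of 10 in KO (-0.11). In muscle of experiments 1 and 2 all probes together lay the other way. In experiment 1, 44.8% of all probes tested were higher on HFD in WT and 43% in KO, in experiment 2 55% and 55.6%, and in experiment 3 47% and 48.1%.

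**Figure D3:**
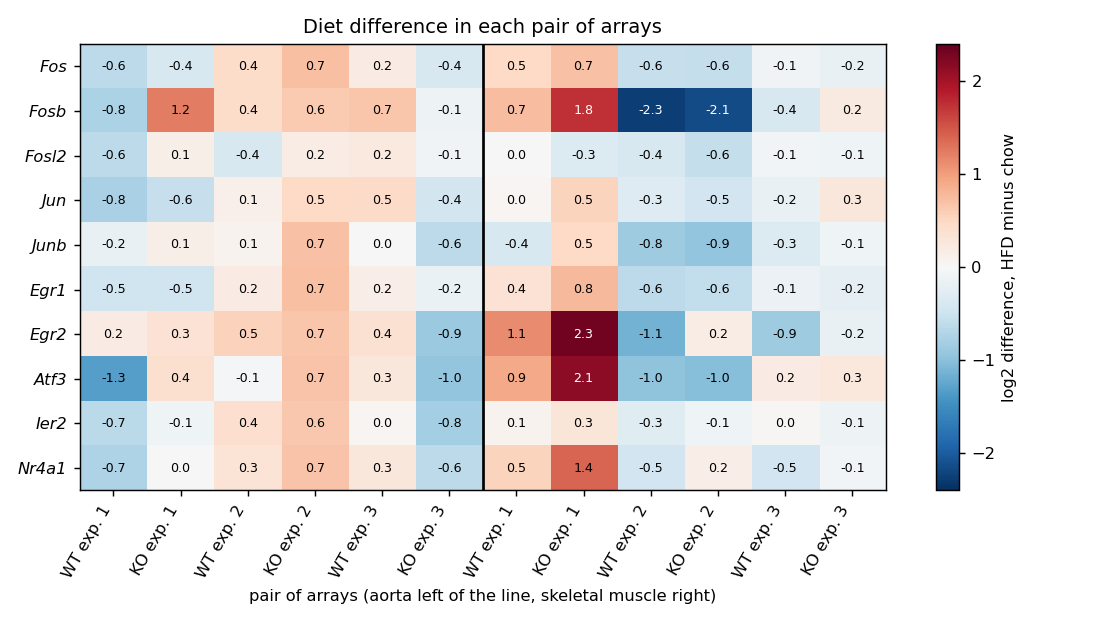
Log2 difference between the HFD and the chow array of each pair (colour and number), with the members in rows and the 12 pairs of strain and experiment in columns, aorta left of the line and skeletal muscle right. Several columns are of 1 colour, such as the KO pair of experiment 2 in aorta with 10 of 10 members higher on HFD and the WT pair of experiment 2 in muscle with 0 of 10.

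Fosb in muscle shows the size of these shifts. On HFD and chow it was at 3.47 and 2.72 in the WT pair of experiment 1 and at 2.64 and 0.88 in the KO pair. In experiment 2 it was at 0.64 and 2.90 in WT and at 0.34 and 2.49 in KO. In experiment 3 it was at 1.67 and 2.05 in WT and at 2.24 and 2.03 in KO. The pairs of experiment 1 were thus higher on HFD and those of experiment 2 lower by more than 2 log2 units. Over the 3 experiments the mean difference was -0.63 ± 1.51 in WT and -0.06 ± 1.96 in KO (SD, n = 3 pairs).

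Fos moved less, with the signs of Fosb in 5 of 6 muscle pairs. In muscle on HFD and chow it was at 5.58 and 5.10 (WT) and 5.29 and 4.58 (KO) in experiment 1, and at 4.93 and 5.49 (WT) and 4.95 and 5.52 (KO) in experiment 2, where the HFD arrays had the wide spot SD of 0.44 given above. In experiment 3 it was at 5.14 and 5.23 (WT) and 5.31 and 5.50 (KO). In aorta the HFD array was higher in WT of experiments 2 and 3 and in KO of experiment 2, by 0.43, 0.19 and 0.73, and lower in the other 3 pairs. Egr2 was the member with the steadiest sign in aorta, higher on HFD in 5 of 6 pairs, by 0.19 to 0.66, but lower by 0.90 in the KO pair of experiment 3.

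The position of an array on its slide moved with the sign in muscle. HFD arrays lay at positions 3 and 4 in experiment 1 and at positions 1 and 2 in experiments 2 and 3. Experiment 1 was read in 1 scan session and experiments 2 and 3 in the other. For the sign of the pairs, position, experiment and session thus cannot be told apart. In muscle the array at position 3 or 4 had the higher level for 7 to 10 of the 10 members in 6 of 6 pairs (median log2 difference 0.11 to 0.74). In aorta it was the higher one for 6 and 10 of the 10 members in the KO pairs of experiments 1 and 3, and for 0 to 2 in the other 4 pairs. With slide position as a covariate, 0 of 10 members were called for diet in either tissue, and its part in the shifts was not tested further.

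The strains did not differ in any member past the threshold. On every slide the WT arrays lay at positions 2 and 4 and the KO arrays at positions 1 and 3, so that strain and position cannot be told apart in these comparisons. KO and WT were compared on each diet and in each tissue, and 0 of 10 members were called in aorta on chow (0.0117% of all probes) or HFD (0.00392%) and in muscle on chow or HFD (0% of all probes for both). The only unadjusted p under 0.05 among these 40 tests was that of Nr4a1 in muscle on chow. There Nr4a1 was at 3.88, 4.45 and 3.85 in WT and at 2.55, 3.57 and 3.53 in KO. Every KO value lay below the WT values. The log2 difference was -0.84 (SE 0.36, unadjusted p = 0.0386 and adjusted p = 1 in limma), and -0.51 without the KO array of experiment 1. On HFD the difference was -0.22 (95% interval -1.01 to 0.57).

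In that contrast all 10 members were lower in KO, with a median of -0.31 (0.01 over all probes), and 1 array carried this. KO chow muscle of experiment 1 was the lowest of its group for 10 of 10 members, while 33% of all probes were lowest there. Its Atf3 level was 0.04, against 2.81 and 2.73 on the other 2 arrays of the group, and its Egr2 level -0.70, against 0.62 and 1.67. Without this array 7 of 10 members were above 0 in KO against WT on chow (median 0.01). The diet difference in KO muscle went from 5 of 10 members above 0 (median 0.00) to 2 of 10 (median -0.36) without it. The difference between the tissues changed little and 7 of 10 members were called without it.

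The members were high or low on the same arrays. After the mean of each of the 8 groups was removed, the Pearson correlation over 24 arrays was above 0 for 41 of the 45 pairs of members and above 0.5 for 30 of them (median 0.57). The highest was that of Egr1 and Nr4a1 (0.87), followed by Fos with Nr4a1 (0.83) and with Egr1 (0.81). Within the 12 aortic arrays 40 of 45 pairs were above 0 (median 0.56) and within the 12 muscle arrays 40 of 45 (median 0.61). With the slide mean removed too, all 45 were above 0 (median 0.76), and Fos and Egr1 reached 0.98. These are descriptions over arrays that share slides and RNA amplification, and the group means use up part of their freedom.

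Fosl2 stood apart. Its median correlation with the other 9 members was 0.03, from -0.33 (Egr1) to 0.41 (Fosb), while that of every other member was 0.48 or more. Within aorta it ran from -0.39 (Egr1) to 0.77 (Fosb), again with a median of 0.03. With the slide mean removed too, the median of Fosl2 was 0.23 (0.02 to 0.43), and that of every other member was 0.74 or more. In aorta its 4 arrays of experiment 3 lay above the 4 of experiment 2. In experiment 3 it was at 0.59 (WT chow), 0.82 (WT HFD), 1.30 (KO chow) and 1.21 (KO HFD), and in experiment 2 at 0.12, -0.26, -0.47 and -0.30 in the same order.

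**Figure D4:**
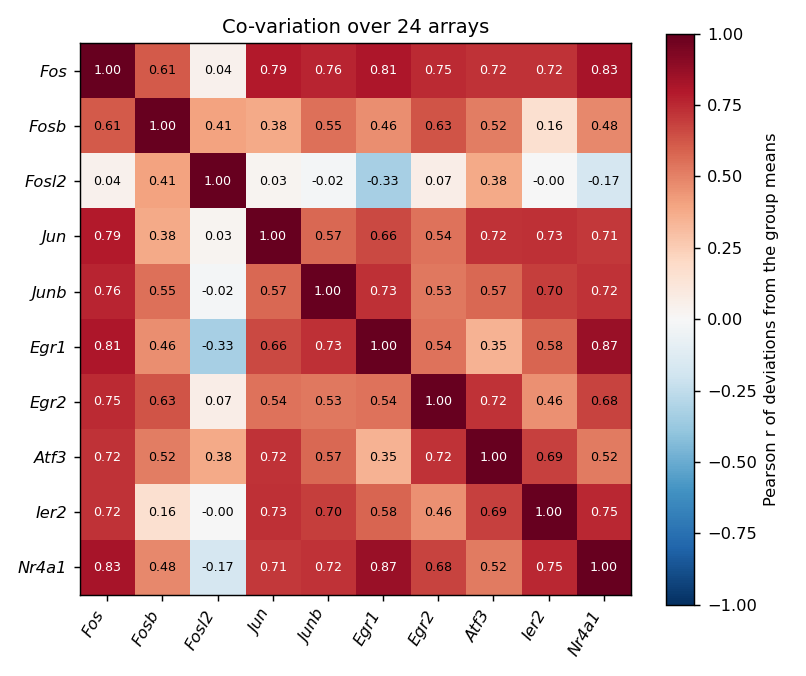
Pearson correlation (colour and number) between members of their deviations from the 8 group means over 24 arrays. Fos correlates with Egr1 at 0.81 and with Nr4a1 at 0.83, and the row of Fosl2 runs from -0.33 to 0.41 (median 0.03).

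The transcripts most like the members' mean over the 24 arrays were found among 14263 other genes, whose median correlation was -0.07. The 10 highest were Zfp36 (0.85), Socs3 (0.77), Myc (0.72), Ccno (0.71), Gadd45b (0.69), Srprb (0.68), Rdh13 (0.68), Meg3 (0.68), Bhlhe40 (0.66) and H2bc6 (0.66). Zfp36 encodes tristetraprolin, which speeds decay of AU-rich mRNA, and Socs3 a feedback inhibitor of cytokine signalling. Of the 10, Zfp36, Socs3, Myc and Gadd45b stood in the list of other immediate early genes. In the separate tissues Zfp36 correlated at 0.78 (aorta) and 0.88 (muscle), and Meg3 at 0.36 and 0.86.

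The mean of the heat shock genes correlated with the members' mean at 0.44, with 0.51 in aorta and 0.40 in muscle. The fibroblast mean correlated at 0.45 in aorta and -0.25 in muscle, the smooth muscle and pericyte mean at 0.40 and -0.31, the leukocyte mean at -0.44 and -0.22, and the endothelial mean at -0.01 and 0.03. The mean of the red cell transcripts correlated at -0.27 in aorta and -0.56 in muscle, the latter the strongest of the cell type lists in muscle. Adipocyte and skeletal muscle fibre means lay between -0.20 and 0.02. The 75th percentile of an array correlated at 0.32 and its share of spots well above background at 0.24 over the 24 arrays. These values are given as descriptions, and their part in the shared shifts was not tested.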

How the data were processed

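Processed intensities had been made, per the file headers, by Agilent Feature Extraction, with background subtraction and spatial detrending inside each array and no scaling between arrays. The submitters' processing notes give version 9.1, while the headers name a later one. The log2 values of the table that the authors deposited matched these intensities apart from 1 constant per array, set separately by tissue, so they served as an alternative within tissues only. Levels used here are log2 ratios of a signal to the 75th percentile over 43379 non-control spots of that array, averaged over the spots of a probe after outliers were dropped. A probe was tested if each array of some group had it well above background and no array lacked a value (25542 probes for aorta, 25456 for muscle, 26752 for both). From 59.5% to 75.7% of spots per array passed that mark. Arrays have no count depth, and their number limits the precision.

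limma 3.58.1 (R 4.3.3) gave every model: diet with a block per strain and experiment, as the study's methods compare HFD with chow inside an experiment, and strain and tissue by group means. Adjusted p-values are Benjamini-Hochberg values with a threshold of 0.05. They rest on the spread between pairs of arrays for diet, and between arrays of a group for strain and tissue. The main strain and tissue models took no account of slides, and the main tissue model none of the pools that both tissues share. Replicate numbers come from the labels. Same-numbered HFD and chow arrays correlated at 0.01 to 0.46 in their deviations from group means, and the tissues of a pool, which are the same mice, at 0.07 to 0.40. Accessions were named through RefSeq (GRCm38.p6), which matched 27479 probes. Alternatives covered normexp (offset 50), quantile normalization, filters, probe averaging, blocks and single experiments left out. Median centring, slide position, the random slide block (consensus correlation 0.28) and leaving out KO chow muscle 1 were chosen after seeing the data. Genes named are the members, at most 5 called genes per list and contrast by size (at most 3 where none was called), Lgals3 and the 10 genes most like the members' mean, and 1 gene that this rule takes is not reported here. Members and lists were chosen with earlier results of these data known. The models were tested on simulated data whose noise was independent between arrays and probes, so shared slides, shared pools and co-variation were not covered.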

Additional observations from a re-analysis of the deposited data

Results flagged for a closer look

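Mrtfb, a myocardin-related coactivator of serum response factor, had a diet response that differed between the tissues. In limma the response in aorta minus that in muscle was -2.15 on the log2 scale (SE 0.34, adjusted p = 0.0457). The HFD array lay below the chow array in 6 of 6 aortic pairs and above it in 6 of 6 muscle pairs. These are the pairs that gave the call, so their signs are no separate evidence. In aorta on HFD and chow Mrtfb was at -3.29 and -1.37 in the WT pair and at -1.49 and -0.77 in the KO pair of experiment 2, and in muscle at -0.37 and -1.64 in WT and at -0.51 and -0.88 in KO. Within a tissue the difference over both strains was not called, at -1.62 in aorta (adjusted p = 0.128) and 0.53 in muscle (adjusted p = 0.231). The call was lost without each experiment and under most other settings, as given below.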

How the results depend on the processing

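For diet, strain and their interactions, 0 of 10 members were called under every alternative run. For the tissues, between 5 and 9 of 10 members were called, 5 to 6 with an experiment left out and 9 with quantile normalization, and no called member changed direction. The replicate block changed 1 member call: with the pool of mice as a block 8 members were called, Ier2 being added at 0.33 (adjusted p = 0.0333). Dropping the pair block left 0 of 10 called for diet. The other lists were less stable between the tissues. With an experiment or KO chow muscle 1 left out, between 7 and 11 other immediate early genes were called lower (12 with all arrays), 4 to 7 upstream regulators lower (7), and 1 to 3 heat shock genes higher (3) and 1 to 4 lower (4). With the slide as a random block 4 upstream regulators were called lower, and 1 heat shock gene higher and 1 lower. With quantile normalization 5 heat shock genes were called higher and 2 lower. Mrtfb stayed between -1.93 and -2.18, but 0 upstream regulators were called for the tissue difference in diet response without any filter on dim probes (Mrtfb adjusted p = 0.0799), with the mean of its probes (0.142), without the pair block (0.688), with median centring (0.054), with slide position as a covariate (0.0727), without KO chow muscle 1 (0.125) and with each experiment left out (0.182 to 0.325). The cause was not tested. With 3 pools a group, diet differences of under about 1 log2 unit in the members of larger spread were not detectable, and larger ones could also go uncalled. In aorta over both strains none of the 5 tested adipocyte transcripts was called, at a median log2 difference of -4.14.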
